A study of Mus musculus with 4 samples.

Results

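Smooth muscle contractile genes encode the machinery with which the wall of a blood vessel shortens, and 10 of them (Acta2, Tagln, Myh11, Cnn1, Lmod1, Actg2, Des, Myocd, Smtn and Mylk) were examined in inguinal white adipose tissue of mice given a medicinal herb extract (MHE) or phosphate-buffered saline (PBS). The genes were chosen by name, and all 10 were found among the 26214 symbols counted in each library. RNA came from the stromal vascular fraction of the fat pad, the cells left when floating adipocytes are removed from digested tissue. Analysed here were 2 libraries labelled as biological replicates from MHE mice and 2 from PBS mice, while the protocol speaks of triplicates. The labels give no strain, age, diet, dose or duration. The deposited files of the MHE and the PBS libraries carry different tags that no label explains, and these were not used. If the tags name a condition such as diet or time, it cannot be told apart from the treatment. The question, as the title of the study puts it, was which genes differ in expression between the treatments.

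In smooth muscle, thin filaments of actin slide along filaments of myosin after myosin light chain kinase, switched on by calcium and calmodulin, phosphorylates the regulatory light chain. Actin-binding proteins such as transgelin, calponin, smoothelin and leiomodin bundle, brake or nucleate the thin filaments. Many of these genes are switched on together by serum response factor, which binds the CArG box, and its coactivator myocardin. In fat they mark the muscle coat of arterioles and veins, and some of them, Acta2 and Tagln above all, are also made by pericytes and by activated fibroblasts.

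Depth was 31052064 and 27161882 counts in the MHE libraries, and 27695144 and 33391075 counts in the PBS libraries. Mature adipocyte markers, which the preparation is meant to leave behind, took 2.15% to 3.12% of counts with MHE and 3.54% to 4.73% with PBS. Lymphocyte markers took 0.156% to 0.204% of counts with MHE and 0.000904% to 0.0101% with PBS. The PBS libraries stood apart from each other: 4.63% of the 16196 genes tested were at least 4-fold higher in PBS replicate 1 than in PBS replicate 2, and 0.710% were at least 4-fold higher in replicate 2. Between the MHE libraries, 1.63% of genes differed at least 4-fold in either direction.

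Promoter sequence is shown for the pair of genes that fell (Lmod1 and Smtn), for the gene that differed most between the PBS libraries (Cnn1) and, as short sites, for Acta2, because the CArG box is the element through which these genes are known to be driven together. The 250 bases before the start of each gene as that table sets it were taken from the promoter table of RefSeq (build GRCm38.p6, from which mm10 is made), which holds 6 of the 10 genes (Acta2, Cnn1, Lmod1, Des, Smtn and Mylk). For Lmod1, Smtn and Cnn1, bases that GENCODE M21 annotates as exon or that lie inside the RefSeq span of the gene were left out of what is printed. For Acta2, 217 of the 250 bases are of these kinds, and both printed sites lie among them. Capitals mark a match to one of the motifs below.
Lmod1, chr1:135324563-135324806, plus strand: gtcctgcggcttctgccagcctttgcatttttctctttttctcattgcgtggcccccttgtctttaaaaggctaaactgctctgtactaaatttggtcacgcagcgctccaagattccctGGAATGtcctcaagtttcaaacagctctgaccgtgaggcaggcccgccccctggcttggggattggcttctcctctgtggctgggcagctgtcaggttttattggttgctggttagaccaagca
Smtn, chr11:3539324-3539542, minus strand: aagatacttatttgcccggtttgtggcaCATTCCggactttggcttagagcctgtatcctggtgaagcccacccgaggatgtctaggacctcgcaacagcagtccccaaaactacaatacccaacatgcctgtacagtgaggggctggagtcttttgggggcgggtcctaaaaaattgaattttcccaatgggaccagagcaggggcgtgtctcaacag
Cnn1, chr9:22099003-22099215, plus strand: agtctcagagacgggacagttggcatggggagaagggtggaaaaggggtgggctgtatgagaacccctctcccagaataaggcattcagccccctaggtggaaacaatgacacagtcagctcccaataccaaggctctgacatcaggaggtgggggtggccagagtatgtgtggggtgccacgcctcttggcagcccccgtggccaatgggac
Acta2, farther site, chr19:34255440-34255465, minus strand: gctgaggtCCCTATATGGttgtgtta
Acta2, nearer site, chr19:34255390-34255415, minus strand: tctttgctCCTTGTTTGGgaagcgag

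None of the 6 windows held an exact CArG box, which 1.47% of the 32851 promoters in the table hold. With up to 1 G or C allowed among its 6 central bases, Acta2 held a match 84 bases and another 34 bases before the start in that table, and the other windows held none, where 8.59% of all promoters hold at least 1. The CArG box reads alike on both strands. CATTCC, the core of the element bound by TEAD factors, was searched on both strands and was present in Acta2, Lmod1, Smtn and Mylk, where 12.6% of all promoters hold it, and it overlapped no CArG match. For Acta2, Cnn1 and Mylk that start lies inside the span of the gene given below. The Acta2 matches thus lie upstream of the start in the promoter table but inside the longer gene span. Whether they lie in exon or intron of that span was not examined. These matches describe the letters of these windows only.

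Few of the contractile genes passed the test, although all of them had lower fitted levels with MHE than with PBS. All 10 had a negative log2 fold change, where 51.2% of all genes tested did. Lmod1 and Smtn fell, which makes 2 of 10 past an adjusted p of 0.05 in the quasi-likelihood test of edgeR (Benjamini-Hochberg over all genes tested), against 4.93% of all genes in either direction and 0.963% in the lower direction. The median log2 fold change was -2.24 over the 10 genes and -0.02 over all genes tested. Both MHE libraries lay below both PBS libraries in 7 of the 10, against 28.9% of all genes tested.

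At an unadjusted p under 0.05, 8 of 10 were lower, against 11.8% of all genes. With PBS replicate 1 left out, 6 passed (5 lower and 1 higher, against 16.5% of all genes in either direction and 5.99% lower), and the median was -1.24. With PBS replicate 2 left out, 9 passed, all lower (7.18% of all genes), and the median was -2.52. With either MHE library left out none passed, as for every gene in the table (0% of genes), with 3 of the 10 at an unadjusted p under 0.05 without MHE replicate 1 and 4 without MHE replicate 2, and medians of -2.10 and -3.20. In each fit with a library left out, the spread comes only from the group that keeps 2 libraries. The spread between the PBS libraries thus does not enter the fits without a PBS library. DESeq2 called 8 of the 10, all lower (7.64% of all genes). Lower calls numbered 2 with RLE factors (1.07% of all genes), limma-voom (1.50%), no low-count filter (0.894%) and the stricter filter (1.53%), and 1 with library totals alone (0.735%).

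Together the 10 genes took 0.0401% (95% interval 0.0394 to 0.0408) and 0.0613% (0.0603 to 0.0622) of counts in MHE replicates 1 and 2. In PBS replicates 1 and 2 they took 0.342% (0.340 to 0.344) and 0.246% (0.244 to 0.248). The groups did not overlap in this share, of which Acta2 alone was a large part. Acta2 gave 4177 of 12452 and 8415 of 16641 of these counts in MHE replicates 1 and 2. In PBS replicates 1 and 2 it gave 28410 of 94738 and 65496 of 82162. In bulk RNA, fewer smooth muscle cells and less contractile RNA per cell cannot be told apart.

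**Figure D1:**
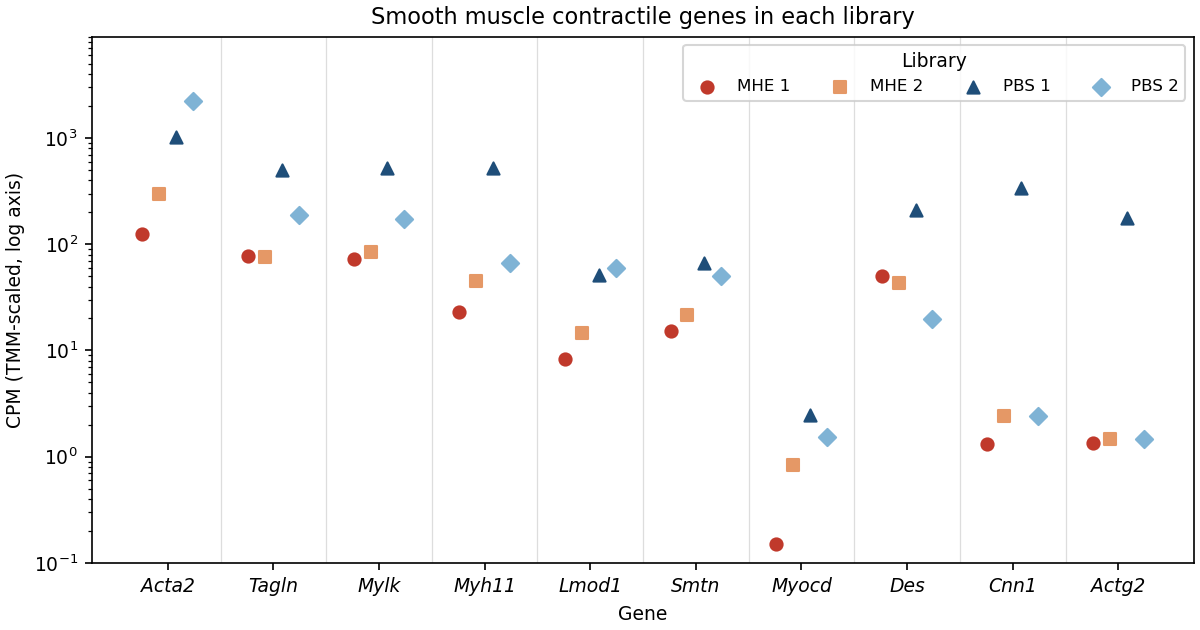
CPM (read counts scaled to library size with TMM factors) of the 10 contractile genes (log axis) in each of the 4 libraries, MHE left of PBS within each gene; each point is 1 library. Acta2, Tagln, Mylk, Myh11, Lmod1, Smtn and Myocd have both MHE points below both PBS points, while Cnn1 and Actg2 have 3 points together and PBS 1 far above them.

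Acta2 encodes smooth muscle alpha-actin, the main actin of vascular smooth muscle (chromosome 19, 34240336 to 34255585 on GRCm38.p6, minus strand, the gene whose sites are printed above). Acta2 stood at 126 and 295 CPM in MHE replicates 1 and 2, and 1025 and 2214 CPM in PBS replicates 1 and 2. The groups did not overlap, and within each group the second replicate was the higher. Its log2 fold change was -2.94 ± 0.64 (SE), with an adjusted p of 0.0675. With PBS replicate 1 left out the log2 fold change was -3.41, and with PBS replicate 2 left out it was -2.28.

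Actg2 encodes smooth muscle gamma-actin, known best from the gut and bladder wall (chromosome 6, 83512909 to 83536251, minus strand). It had 45 and 42 counts in MHE replicates 1 and 2, and 4949 and 43 counts in PBS replicates 1 and 2. PBS replicate 1 alone was high, and the other 3 libraries had 1.35 to 1.47 CPM against 179 CPM there. The log2 fold change of -5.99 ± 2.11 (adjusted p = 0.15) rested on that library: leaving out PBS replicate 1 gave -0.06, and leaving out PBS replicate 2 gave -6.97 (adjusted p = 1.30e-06). Acta2 and Actg2 transcripts share no stretch of 50 bases in GENCODE M21, and Acta2 shares 0.326% of its 50-base stretches with the cytoplasmic actin Actg1.

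Lmod1 encodes leiomodin, which starts new actin filaments (chromosome 1, 135324813 to 135368065, plus strand, promoter printed above). Lmod1 stood at 8.34 and 14.5 CPM in MHE replicates 1 and 2, and 51.7 and 60.4 CPM in PBS replicates 1 and 2, or 11.4 ± 4.36 CPM with MHE and 56.0 ± 6.15 CPM with PBS (SD, n = 2 each). The groups were well apart, and the PBS libraries were close to each other. Lmod1 fell, with a log2 fold change of -2.30 ± 0.33 and an adjusted p of 0.0355. The call held with PBS replicate 1 (-2.42) or PBS replicate 2 (-2.17) left out, and Lmod1 lost it without MHE replicate 1 (-1.94, adjusted p = 0.311) and without MHE replicate 2 (-2.74, adjusted p = 0.261).

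Smtn encodes smoothelin, which binds the actin of contractile cells (chromosome 11, 3517522 to 3539292, minus strand, promoter printed above). The opposite-strand gene Gm11946, which is not among the symbols counted, shares 16.3% of the exon bases of Smtn. Smtn stood at 15.3 and 21.4 CPM in MHE replicates 1 and 2, and 67.2 and 50.1 CPM in PBS replicates 1 and 2. Smtn fell too, by 1.68 on the log2 scale (SE 0.27, adjusted p = 0.0429), and the groups did not overlap. Its call was lost under library totals alone (adjusted p = 0.0538), without MHE replicate 1 (-1.44, adjusted p = 0.334) and without MHE replicate 2 (-1.92, adjusted p = 0.275).

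Tagln encodes transgelin (SM22-alpha), an actin-bundling protein (chromosome 9, 45929628 to 45936058, minus strand). Tagln stood at 76.8 and 75.2 CPM in MHE replicates 1 and 2, and 499 and 189 CPM in PBS replicates 1 and 2. The MHE libraries were nearly equal and lay below both PBS libraries. Tagln had a log2 fold change of -2.18 ± 0.51 at an adjusted p of 0.0767. Leaving out PBS replicate 1 gave -1.33, and leaving out PBS replicate 2 gave -2.71. In these fits the spread between the PBS libraries does not enter. The antisense gene Gm48529, which is not among the symbols counted, shares 62.4% of the exon bases of Tagln. Another opposite-strand gene, Pcsk7, shares 5.43% of them. Pcsk7 had a log2 fold change of 0.14.

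Cnn1 encodes calponin, which holds back the myosin ATPase on actin (chromosome 9, 22099221 to 22109221, plus strand, promoter printed above). It had 44 and 69 counts in MHE replicates 1 and 2, and 9352 and 71 counts in PBS replicates 1 and 2. In CPM these are 1.32 and 2.42 with MHE, and 338 and 2.40 with PBS, so that PBS replicate 2 lay between the MHE libraries. Exact Poisson intervals, which cover counting error only, were 53.7 to 87.3 counts in MHE replicate 2 and 55.5 to 89.6 counts in PBS replicate 2. The log2 fold change of -6.51 ± 2.23 (adjusted p = 0.144) shrank to -0.38 when PBS replicate 1 was left out (adjusted p = 0.701), and leaving out PBS replicate 2 gave -7.49 (adjusted p = 4.61e-06).

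**Figure D2:**
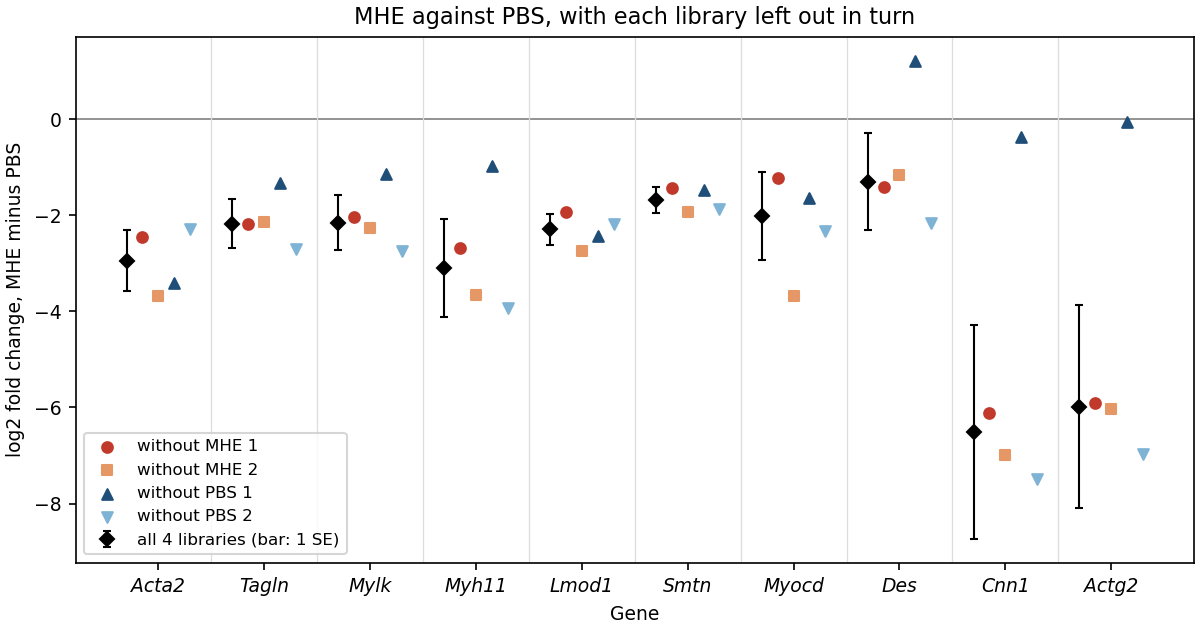
Log2 fold change (MHE minus PBS) of each contractile gene with all 4 libraries (black, bar of 1 SE) and with 1 library left out (coloured points). Lmod1 and Smtn stay between -2.74 and -1.44, whereas Cnn1 and Actg2 come to -0.38 and -0.06 and Des turns to 1.22 without PBS 1.

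Myh11 encodes the smooth muscle myosin heavy chain, the motor itself (chromosome 16, 14194527 to 14292188, minus strand). Myh11 stood at 23.0 and 45.3 CPM in MHE replicates 1 and 2, and 521 and 66.6 CPM in PBS replicates 1 and 2. Both MHE libraries were the lower, but PBS replicate 2 was much nearer to MHE replicate 2 than to PBS replicate 1. Myh11 had a log2 fold change of -3.11 ± 1.02 at an adjusted p of 0.135. Leaving out PBS replicate 1 gave -0.98, and leaving out PBS replicate 2 gave -3.92 (adjusted p = 3.84e-04).

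Mylk encodes myosin light chain kinase, the switch of contraction (chromosome 16, 34745199 to 35002436, plus strand), and an internal start of the same gene yields the short protein telokin. Mylk stood at 72.2 and 84.7 CPM in MHE replicates 1 and 2, and 526 and 172 CPM in PBS replicates 1 and 2. The groups did not overlap, with a log2 fold change of -2.15 ± 0.57 at an adjusted p of 0.0951. Leaving out PBS replicate 1 gave -1.15 for Mylk, and leaving out PBS replicate 2 gave -2.74. The antisense transcript E130310I04Rik shares 4.87% of the exon bases of Mylk and had -1.49 ± 0.40 at an adjusted p of 0.0951. The use of strand in the counting is not given, so reads of such pairs cannot be told apart.

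Des encodes desmin, the intermediate filament of smooth, skeletal and heart muscle (chromosome 1, 75360292 to 75368579, plus strand). Des stood at 50.7 and 42.9 CPM in MHE replicates 1 and 2, and 210 and 19.9 CPM in PBS replicates 1 and 2. The MHE libraries lay between the PBS libraries. Its log2 fold change of -1.30 ± 1.01 (adjusted p = 0.437) changed direction with the choice of PBS library. Leaving out PBS replicate 1 gave 1.22 (adjusted p = 0.0255), and leaving out PBS replicate 2 gave -2.16 (adjusted p = 7.30e-04).

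Myocd encodes myocardin, the coactivator of serum response factor that drives this set of genes (chromosome 11, 65173608 to 65269989, minus strand). It was the scarcest of the 10, with 5 and 24 counts in MHE replicates 1 and 2, and 69 and 45 counts in PBS replicates 1 and 2. The groups did not overlap. The exact Poisson interval was 15.4 to 35.7 counts in MHE replicate 2 and 32.8 to 60.2 counts in PBS replicate 2, so the intervals of these libraries overlapped. Myocd had a log2 fold change of -2.02 ± 0.91 at an adjusted p of 0.218. It was -1.23 without MHE replicate 1 and -3.69 when MHE replicate 2 was the one left out.

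The 10 genes differed unequally between the PBS libraries. Of the 10, 4 (Cnn1, Actg2, Des and Myh11) were at least 4-fold higher in PBS replicate 1, against 4.63% of all genes, and none was at least 4-fold higher in PBS replicate 2 (0.710% of all genes). Between the MHE libraries 1 of the 10, Myocd, differed at least 4-fold, against 1.63% of all genes. The ratio of PBS replicate 1 to PBS replicate 2 was 141 for Cnn1, 123 for Actg2, 10.6 for Des and 7.82 for Myh11. It was 3.05 for Mylk, 2.65 for Tagln, 1.64 for Myocd and 1.34 for Smtn. Lmod1 and Acta2 ran the other way, at 0.856 and 0.463. Over the 10 genes the median size of the log2 difference was 1.51 between the PBS libraries and 0.64 between the MHE libraries, and over all genes tested it was 0.35 and 0.31.

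**Figure D3:**
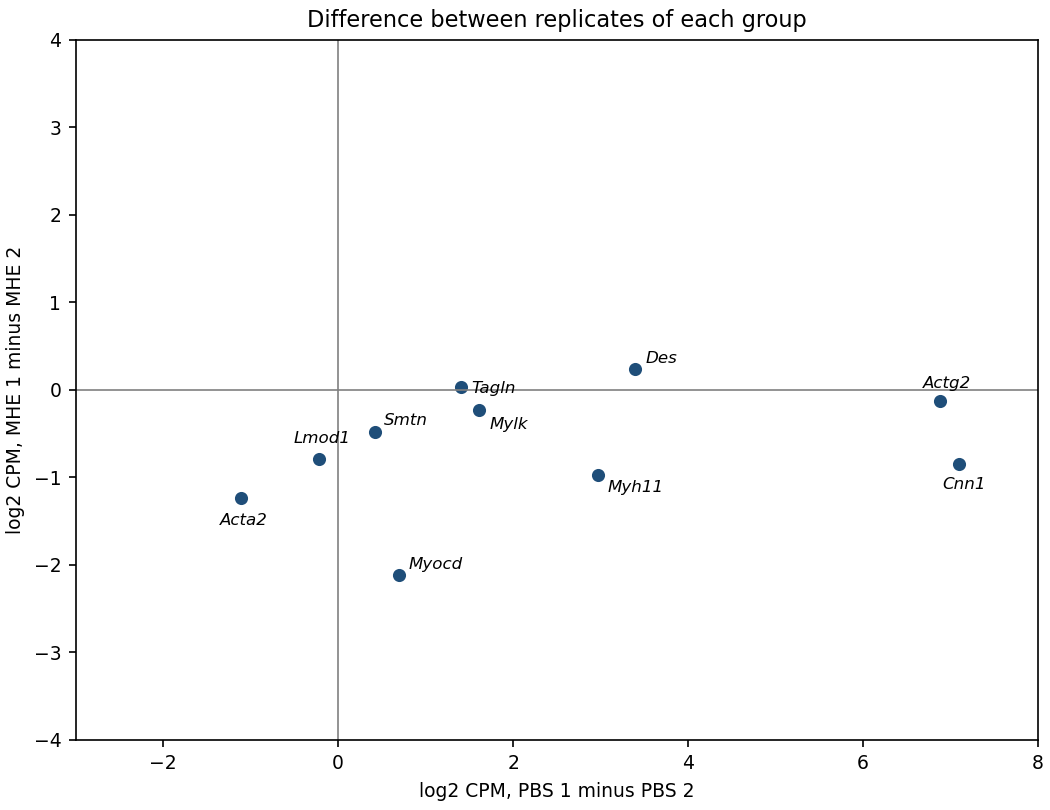
Log2 CPM difference between replicates 1 and 2 of PBS (x axis) and of MHE (y axis) for each contractile gene; each point is 1 gene, and the axes span different ranges. Cnn1 (7.10) and Actg2 (6.88) lie far to the right, Des (3.40) and Myh11 (2.97) follow, and no gene departs from 0 by more than 2.11 between the MHE libraries.

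Set against Acta2 within the same library, the other genes were scarcest in PBS replicate 2. For every 100 Acta2 counts, Tagln had 61.1 and 25.5 counts in MHE replicates 1 and 2, and 48.7 and 8.52 counts in PBS replicates 1 and 2. Myh11 had 18.3 and 15.3 counts with MHE, and 50.8 and 3.01 counts with PBS. Cnn1 had 1.05 and 0.82 counts with MHE, and 32.9 and 0.11 counts with PBS. Lmod1, with 6.63 and 4.91 counts with MHE and 5.04 and 2.73 counts with PBS, kept the narrowest range. All 9 ratios were lowest in PBS replicate 2, the library with the most Acta2, which is the denominator of each.

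**Figure D4:**
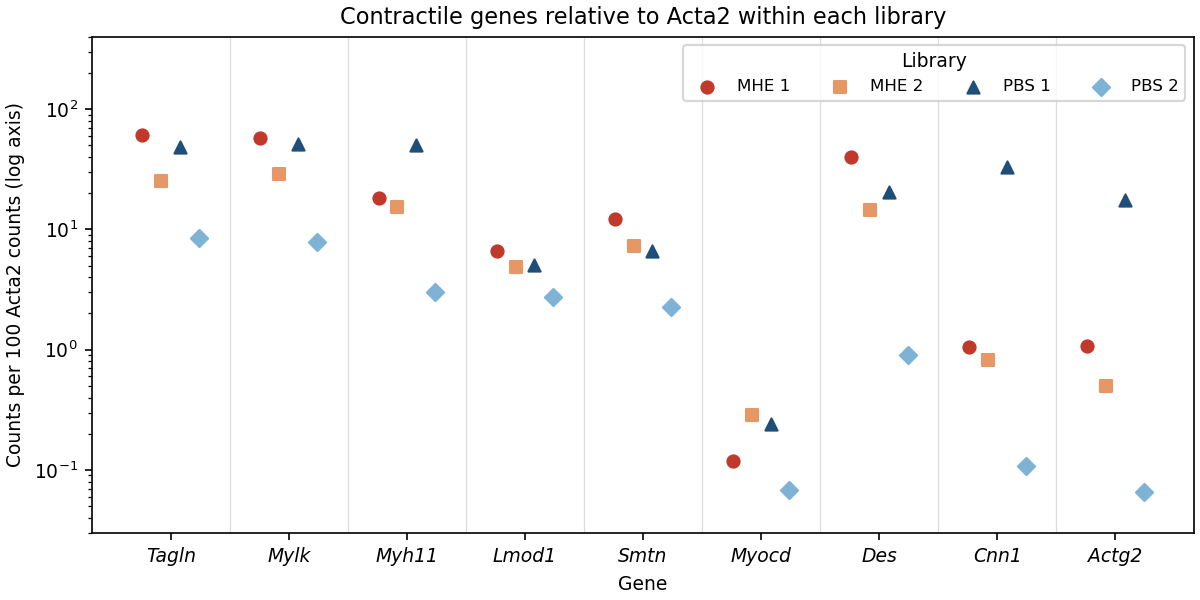
Counts of each contractile gene per 100 Acta2 counts in the same library (log axis), MHE left of PBS within each gene; each point is 1 library. PBS 2 is the lowest point for all 9 genes, and PBS 1 stands high for Myh11, Cnn1 and Actg2.

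Per length of transcript the order of the genes also differed between libraries. As mean CPM per kilobase of merged exons, the MHE libraries had Acta2 at 95.9, Tagln at 38.2, Des at 12.5, Mylk at 6.96, Myh11 at 4.49, Smtn at 4.19 and Lmod1 at 2.89. Actg2, Cnn1 and Myocd followed at 0.909, 0.685 and 0.0773. In PBS replicate 1, Cnn1 (123) and Actg2 (115) came next after Acta2 (467) and Tagln (251), whereas in PBS replicate 2 they stood at 0.877 and 0.933, below all but Myocd. Among the MHE levels, those of Mylk, Myh11 and Smtn lay close together: Myh11 had 3.02 and 5.96 CPM per kilobase in replicates 1 and 2, and Smtn had 3.50 and 4.88.

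The nearest patterns over the 4 libraries were sought among 10267 other genes by the Euclidean distance between centred log2 CPM. The search left out all genes of the lists in this report, provisional symbols and genes with a mean log2 CPM under 3. Acta2, whose own distance from a flat pattern was 3.19, was followed most closely by Map1a, a microtubule protein gene, at 0.34, and by Sorbs2, an actin-associated adaptor gene, at 0.42. Ccn5 (0.46) and Specc1 (0.62) came next. Lmod1 (2.41 from flat) was nearest to Abat, the gene of the transaminase that breaks down GABA, at 0.09, then to Lbp, Gask1b and Slc13a4 at 0.24 to 0.31. Myh11 (3.36 from flat) was nearest to the kinesin gene Kif5c at 0.35, and next came Slc39a8 (0.69) and Il1rn (0.92). Cnn1 had no near match among the genes searched: its 4 nearest, Kif5c, Rnf128, Hspb7 and Penk, lay 3.24 to 3.58 away, against 6.42 for a flat pattern. Actg2, a listed gene and so outside the search, had a pattern like that of Cnn1. Its counts were 45 and 42 in MHE replicates 1 and 2, and 4949 and 43 in PBS replicates 1 and 2. With 4 libraries many genes share a pattern, and the distances are a description only.

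A wider list of the contractile apparatus and its cytoskeleton was examined beside the 10 genes. Of 27 such genes, 4 fell and none rose, against 0.963% of all genes lower. Negative log2 fold changes were found in 26 (51.2% of all genes), with a median of -1.42, and both MHE libraries lay below both PBS libraries in 23 (28.9% of all genes). Those that fell were Myl9, the regulatory light chain that Mylk phosphorylates, the actin-filament adaptor Pdlim7, the Z-disc gene Ldb3 and Hspb6, a small heat shock protein of relaxing muscle. Myl9 had 52.2 and 48.7 CPM in MHE replicates 1 and 2, and 329 and 164 CPM in PBS replicates 1 and 2, with a log2 fold change of -2.29 ± 0.39 (adjusted p = 0.0462). The log2 fold changes of Pdlim7, Ldb3 and Hspb6 were -1.72 ± 0.20, -2.24 ± 0.33 and -1.78 ± 0.25. Myl9 lost its call under library totals alone (adjusted p = 0.0564), and the number that passed, all lower, was 8 without PBS replicate 1 (5.99% of all genes), 14 without PBS replicate 2 (7.18%), 0 without either MHE library and 16 by DESeq2 (7.64%). Tpm2, a tropomyosin gene named after its values were seen, had 20.2 and 20.5 CPM with MHE and 404 and 24.7 CPM with PBS, another gene that was high in PBS replicate 1.

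Signals and regulators upstream of contraction gave few calls, as did the genes tested as a whole. Over all 4 libraries edgeR passed 4.93% of all genes in either direction and 0.963% lower. At an unadjusted p under 0.05, 11.8% of all genes were lower. DESeq2 passed 2951 of 16196 genes in either direction and 7.64% of all genes lower. The counts over all libraries in this and the following lists stand against these shares. Of 25 tested genes for calcium, RhoA and channel signalling, none fell and 1 rose, Arhgef1, an activator of RhoA that leukocytes also use (216 and 186 CPM with MHE, 53.9 and 57.6 CPM with PBS, adjusted p = 0.0248). The median of that list was -0.67. The alpha-1D adrenergic receptor gene Adra1d, which mediates vasoconstriction, had a log2 fold change of -2.33 ± 0.47 (adjusted p = 0.0584). It was -2.61 with PBS replicate 1 left out and -1.99 with PBS replicate 2 left out. Of 23 tested regulators of the contractile programme, 2 rose and none fell (median -0.18, and 0.01 under library totals alone): Mef2c (126 and 134 CPM with MHE, 38.5 and 50.9 CPM with PBS) and the forkhead gene Foxf1 (6.68 and 5.20 CPM with MHE, 0.180 and 0.203 CPM with PBS).

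Srf, the serum response factor gene, named outside the rule, had 67.7 and 76.6 CPM in MHE replicates 1 and 2, and 43.8 and 67.6 CPM in PBS replicates 1 and 2 (log2 fold change 0.37 ± 0.27, adjusted p = 0.408). Mrtfa, a myocardin-related coactivator, had a log2 fold change of 1.53 ± 0.30 (adjusted p = 0.0576). It was 1.94 with PBS replicate 1 left out and 1.20 with PBS replicate 2 left out. Mrtfb, the other myocardin-related coactivator, also named outside the rule, had 38.3 and 43.7 CPM with MHE, and 56.5 and 55.7 CPM with PBS, the opposite direction to Mrtfa. Arhgef1, Mef2c and Foxf1 lost their calls without either MHE library. Both the signalling and the regulator list had 6 genes past the threshold without PBS replicate 1, and 5 when PBS replicate 2 was the one left out. The same fits passed 16.5% of all genes without PBS replicate 1 and 2513 of 17172 genes without PBS replicate 2, and the counts of the lists that follow stand against these.

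**Figure D5:**
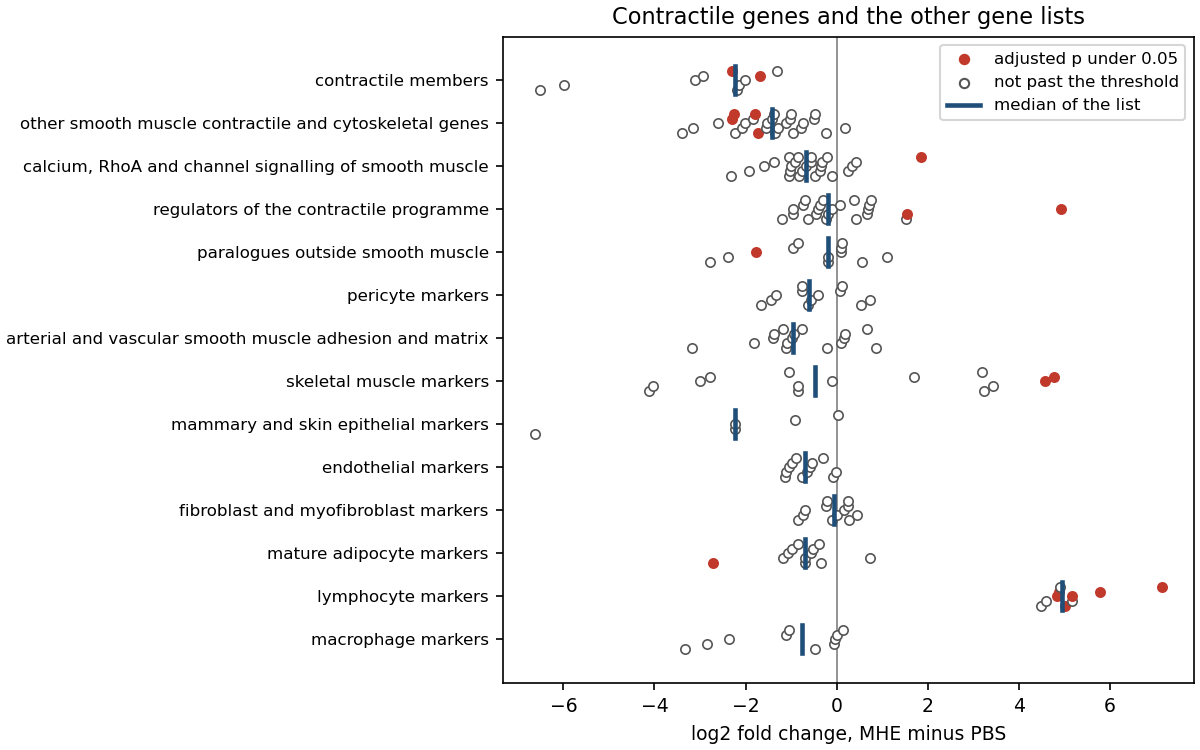
Log2 fold change (MHE minus PBS) of every tested gene in each list, 1 point per gene, filled red where the adjusted p is under 0.05 and open otherwise, with the median of the list as a blue bar. The contractile genes have a median of -2.24 and the wider contractile list -1.42, while the regulator and fibroblast lists sit near 0.

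Among close relatives of the contractile genes 1 passed, where 0.963% of all genes were lower. Of 12 tested paralogues made mainly outside smooth muscle, 1 fell, the non-muscle myosin gene Myh14 (-1.76 ± 0.23, adjusted p = 0.0299), and the median was -0.19. Acta1, the skeletal muscle actin gene, had 52.9 and 155 CPM in MHE replicates 1 and 2, and 266 and 1174 CPM in PBS replicates 1 and 2 (-2.79 ± 0.90, adjusted p = 0.132), the same order of libraries as Acta2. Without PBS replicate 1 the log2 fold change of Acta1 was -3.51, and Acta1 and Acta2 transcripts share no stretch of 50 bases. The paralogue list had 4 genes past the threshold without PBS replicate 1, 3 when PBS replicate 2 was the one left out, and 0 without either MHE library.

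Markers of pericytes, the other mural cells, gave no call. None of 12 pericyte markers passed over all libraries in edgeR, a count close to the share of all genes (4.93% in either direction and 0.963% lower). At an unadjusted p under 0.05, 3 of the 12 passed, all lower, where 11.8% of all genes were lower. DESeq2 called 2 of them, both lower, against 7.64% of all genes. The median of the pericyte markers was -0.59, with 8 negative and 4 positive log2 fold changes (51.2% of all genes were negative). Vtn (0.55 ± 0.23, adjusted p = 0.198) and Cox4i2 (0.73 ± 0.46, adjusted p = 0.351) were higher in both MHE libraries than in both PBS libraries. They took 0.0512% and 0.0766% of counts with MHE, and 0.0780% and 0.117% with PBS. Rgs5, the leading pericyte gene, had 213 and 306 CPM in MHE replicates 1 and 2, and 296 and 587 CPM in PBS replicates 1 and 2, so its groups overlapped. Mcam, shared by pericytes, smooth muscle and endothelium, had a log2 fold change of -1.44 ± 0.35 (adjusted p = 0.0789), and of -1.72 without PBS replicate 1. None of 16 tested genes of arterial adhesion and matrix passed (edgeR, with 1 higher and 2 lower at an unadjusted p under 0.05; 4 by DESeq2), with a median of -0.96. Itga7, the laminin receptor of muscle, had a log2 fold change of -1.82 ± 0.43 (adjusted p = 0.077). It was -2.20 with PBS replicate 1 left out and -1.32 with PBS replicate 2 left out. Without PBS replicate 1 the numbers past the threshold were 3 and 4 for these lists, and without PBS replicate 2 they were 0 and 3. Whether the contractile and pericyte lists differ from each other was not tested.

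Markers of other cell types also differed between the libraries. Markers of mammary and skin epithelium took 0.000963% and 0.000990% of counts in MHE replicates 1 and 2, and 0.0155% and 0.000494% in PBS replicates 1 and 2, and 0 to 3 of the 10 were at 0 in each library. Krt8, a keratin of simple epithelia, had 0.120 and 0.351 CPM with MHE, and 46.4 and 0.0676 CPM with PBS. Epcam, an epithelial adhesion gene, had 2.98 and 3.41 CPM with MHE, and 30.0 and 0.0676 CPM with PBS. They were thus high in PBS replicate 1, as Cnn1 and Actg2 were. The basal keratin Krt5 and its partner Krt14 were scarcer, at 2.13 and 1.05 CPM there, but were also highest in that library. Krt5 had 2 and 2 counts with MHE, and 59 and 0 counts with PBS. Krt14 had 7 and 3 counts with MHE, and 29 and 0 counts with PBS. Both were named outside the rule and were removed by the low-count filter. None of 5 tested epithelial markers passed (edgeR, 1 lower at an unadjusted p under 0.05; 0 by DESeq2, 1 without PBS replicate 1, and 6 when PBS replicate 2 was left out and more of the list entered the test), with a median of -2.24 that was 0.10 without PBS replicate 1.

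Skeletal muscle markers took 0.00840% and 0.0191% of counts with MHE, and 0.0326% and 0.105% with PBS, most of it Acta1. Of 14 tested, 2 rose, the titin gene Ttn (7.28 and 7.34 CPM with MHE, 0.397 and 0.135 CPM with PBS) and the fast myosin gene Myh4 (2.08 and 1.47 CPM with MHE, 0.108 and 0.0338 CPM with PBS), with adjusted p of 0.029 and 0.0486. Both lost their calls without either MHE library, Myh4 missed the threshold also in limma-voom (adjusted p = 0.052) and when no genes were filtered (adjusted p = 0.0552), and the list had 5 genes past the threshold without PBS replicate 1 and 8 when PBS replicate 2 was the one left out. The list went both ways, with 8 negative and 6 positive log2 fold changes. At an unadjusted p under 0.05 in edgeR, 5 were higher and 2 lower, the lower ones being Acta1 and Casq1. Casq1 had 8 and 14 counts with MHE, and 299 and 37 counts with PBS (-4.03 ± 1.18, adjusted p = 0.113). The median of the list was -0.47, and it was 0.63 in limma-voom, 1.69 under the stricter filter and 2.06 without PBS replicate 1.

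Macrophage markers took 0.186% and 0.250% of counts with MHE, and 0.457% and 0.140% with PBS, highest in PBS replicate 1, and none of 10 passed (edgeR, 1 lower at an unadjusted p under 0.05; 0 by DESeq2, 1 without PBS replicate 2; median -0.76). Endothelial markers took 0.121% of counts in each MHE library, and 0.132% and 0.210% in PBS replicates 1 and 2, and none of 12 passed (edgeR, 2 lower at an unadjusted p under 0.05; 2 by DESeq2 and 8 without PBS replicate 1), with a median of -0.70 that was -0.15 without PBS replicate 2. Fibroblast and myofibroblast markers took 0.167% and 0.855% with MHE, and 0.401% and 0.544% with PBS, and none of 12 passed (edgeR, 0 at an unadjusted p under 0.05; 0 by DESeq2), with a median of -0.05 that was 0.58 without MHE replicate 1, -1.61 when MHE replicate 2 was the one left out and 0.13 under library totals alone. Of 12 mature adipocyte markers, Lep, the leptin gene, fell (-2.72 ± 0.42), with a median of -0.69, and of 10 lymphocyte markers 6 rose, with a median of 4.96. The part of these cell types in the contractile results was not tested. Lep and the lymphocyte genes lost their calls without either MHE library, and without PBS replicate 1 the lymphocyte median was 7.30 with 10 past the threshold.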

How the data were processed

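Each library has 1 deposited file of raw whole-number counts by gene symbol. TopHat2, edgeR and limma, and the build mm10, are named without versions in the submitters' processing notes, and which counting program, annotation and strand setting made the counts is not given in the sources used here. Contractile genes, gene lists and tests were chosen with earlier results of these data known.

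edgeR 4.0.16 in R 4.3.3 was run on the counts of all genes (filterByExpr with a minimum count of 10 and total of 15, TMM, robust quasi-likelihood fit and test), which left 16196 genes. Adjusted p is Benjamini-Hochberg over these, and genes passed at 0.05. Each log2 fold change is MHE minus PBS, and its SE is its size divided by the square root of F. CPM uses the counts of tested genes and TMM factors. Differences between replicates use log2 CPM with 2 counts added. Shares of counts carry exact Clopper-Pearson 95% intervals, for counting error only.

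Named genes are all 10 contractile genes, up to 6 genes with the smallest p in each other list, and the 4 nearest patterns to Acta2, Myh11, Cnn1 and Lmod1, of which 1 is not reported here. Of 26214 symbols, 26167 matched the RefSeq table. Exon lengths and overlaps come from GENCODE M21.

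Tested on simulated data (5 draws over 16196 genes, 200 changed), the fit recovered 6% of genes changed 2-fold, 60.4% of those changed 4-fold, 94% of those changed 16-fold and 97.6% of those changed 64-fold, and 14.1% of calls were unchanged genes. Every pair of libraries differed by more than sampling noise. The labels call the libraries biological replicates without naming animals, so p-values measure the spread between these libraries. An exact two-sided permutation of 2 against 2 libraries cannot go below 0.333. Alternatives were median-of-ratios (RLE) factors, library totals, DESeq2 1.42.0, limma-voom (limma 3.58.1), no filter, a stricter filter (50 counts over all libraries and 1 CPM or more in 2 of them), a replicate block, and leaving out each library. Leaving out a library leaves 1 in its group, assumed to vary like the other group.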

Additional observations from a re-analysis of the deposited data

How the results depend on the processing

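The number of contractile genes past the threshold was 2 with the main settings, 1 under library totals alone (Lmod1) and 8 by DESeq2, and ran between 0 and 9 with a library left out. It stayed at 2 with RLE factors, limma-voom, no filter, the stricter filter and the replicate block. Their median log2 fold change of -2.24 ran between -3.20 and -1.24 with a library left out and between -2.39 and -2.09 under the other settings. The log2 fold change of Des ran between -2.16 and 1.22 with a library left out, and was 1.22 without PBS replicate 1. Over all genes, 799 passed with the main settings, 2951 by DESeq2 (which gave no adjusted p for 942) and 0 to 2750 with a library left out. Library totals alone moved the median of all genes by 0.16 on the log2 scale. The cause of these differences was not tested. Same-numbered libraries share only a number: replicate 1 libraries deviated from their group means with a correlation of 0.12 over genes, and with the number as a block the 2 contractile genes past the threshold were Acta2 (adjusted p = 0.0369) and Lmod1, while Smtn, Myl9 and Myh4 lost their calls (adjusted p of 0.0648, 0.0502 and 0.0631) and Acta1, Adra1d, Mcam and Itga7 passed; 191 of 16196 genes were lower under the block. With 2 libraries a group and a common biological coefficient of variation of 33.6%, small changes were seldom called: 6% of simulated 2-fold changes were recovered.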
